A study of Mus musculus with 2 samples.

Results

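The Hedgehog receptors Ptch1 and Hhip, the co-receptors Boc and Gas1, the transducers Smo and Sufu and the transcription factors Gli1, Gli2 and Gli3 were examined in RNA sequencing of embryonic mouse pituitaries. These 9 core genes of the pathway were taken by symbol from the 55401 genes of the deposited tables. They and the gene lists below were chosen with earlier results of these data known, which limits the comparisons with all genes. All 9 were found, and all 9 were among the 14000 genes that reached 1 FPKM in either library, which were compared. FPKM is the number of fragments per kilobase of exon, scaled to all fragments counted in the library, so levels can be set side by side between genes.

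There were 2 groups, both collected at embryonic day E12.5, and gene positions are those of GRCm38. The first was a Dyrk2-KO library from pituitaries of Dyrk2-/- embryos, which lack the protein kinase Dyrk2. The second was a WT library from wild-type pituitaries. The title of the series places the comparison among questions on primary cilia, cell-type determination and vessel growth. The sources used here do not give the knockout allele, the strain or the number of embryos in each library.

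Hedgehog ligands such as Shh bind the receptor Ptch1, which in their absence holds the transducer Smo inactive. Active Smo gathers in the primary cilium and releases the Gli factors from their inhibitor Sufu. Gli2 then acts mainly as an activator, Gli3 mainly as a repressor when signal is absent, and Gli1 is itself a target of the pathway, as are Ptch1 and Hhip. In the mouse embryo, transcription of co-receptors of the pathway is known to be lower where signalling is strong. Shh from the oral ectoderm and ventral forebrain acts on Rathke's pouch, the forerunner of the anterior pituitary, and loss of GLI2 function in humans is a known cause of pituitary hormone deficiency. In cultured cells, DYRK2 has been reported to phosphorylate GLI2.

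The tables correspond to about 20120000 counted fragments in the Dyrk2-KO library and 20050000 in the WT library. Each genotype had 1 library, so differences are given without p-values or any check between replicates. All intervals are 95% and cover counting error only. Dyrk2 itself measured 1.93 FPKM (Poisson interval 1.70 to 2.19) in the Dyrk2-KO library and 11.5 FPKM (10.9 to 12.1) in the WT library, so the knockout library held 16.8% of the wild-type level. The female transcript Xist measured 14.8 FPKM in the Dyrk2-KO library and 74.98 FPKM in the WT library, while the Y-linked Ddx3y measured 14.95 FPKM in the Dyrk2-KO library and 5.83 FPKM in the WT library. The mixture of sexes thus differed between the libraries, and its part in the results below was not tested. All 12 listed markers of Rathke's pouch and epithelium were detected, with summed levels of 1113 FPKM in the Dyrk2-KO library and 1222 FPKM in the WT library.

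Gli1, Hhip and Ptch1 were lower in the knockout library, Gas1, Boc, Gli2 and Gli3 were higher, and Smo and Sufu lay close to level. On the log2 scale with 0.5 FPKM added to both values, which shrinks the ratios of weakly expressed genes, Gli1 and Hhip were lower by 1.5-fold or more and Boc and Gas1 higher by as much. Among all genes compared, 4.56% were lower and 2.06% higher by this rule. Gli2 and Gli3 lay just inside it, at 1.494-fold and 1.493-fold. As plain ratios of FPKM they exceeded 1.5-fold, which gave 2 lower and 4 higher genes, against 6.41% and 2.89% of all genes. They also exceeded it with the addition when the knockout library was rescaled by 1.023 or 1.024, the factors of a trimmed mean of log ratios and of equal medians. The counting interval lay wholly beyond 1.5-fold lower for Gli1 and Hhip and wholly beyond 1.5-fold higher for Boc and Gas1, which held for 1.83% and 0.664% of all genes. It lay wholly below 1 for 3 of the 9 genes and wholly above 1 for 5, shares that over all genes were 22.3% and 17.7%. The median log2 ratio of the 9 genes was 0.09 and that of all genes compared -0.02. Mesenchyme markers also differed, with summed levels of 161 FPKM in the Dyrk2-KO library and 248 FPKM in the WT library, and in such bulk libraries fewer cells of a type and less RNA per cell cannot be told apart.

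**Figure D1:**
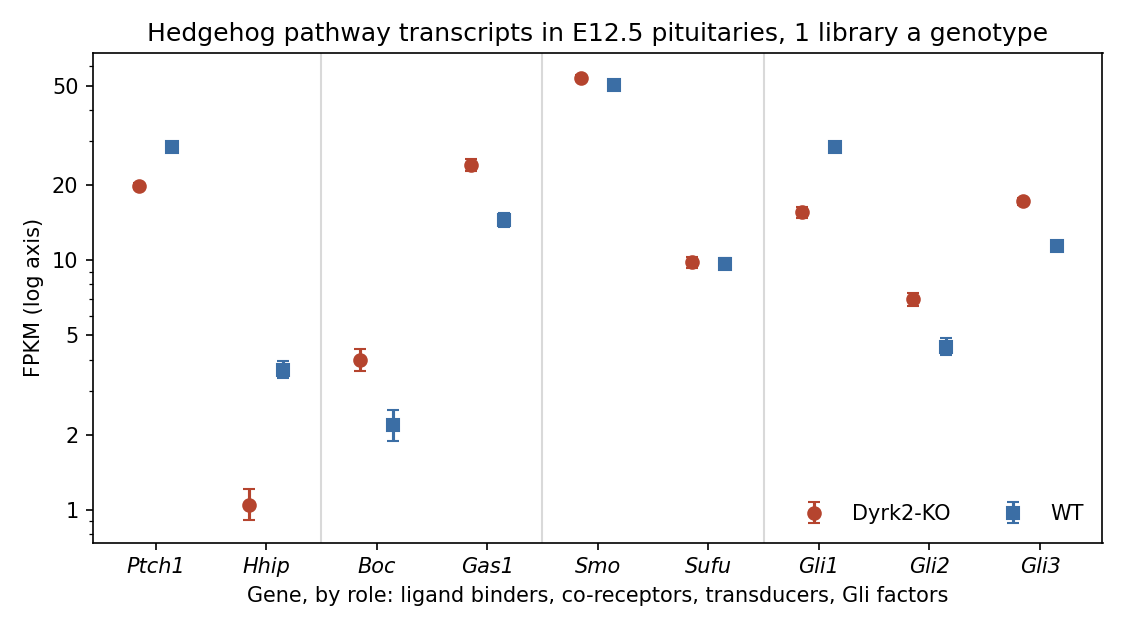
FPKM of the 9 Hedgehog genes on a log axis, grouped by role, with red circles for the Dyrk2-KO library, blue squares for the WT library and bars for 95% Poisson intervals. Ptch1, Hhip and Gli1 sit lower in the Dyrk2-KO library, Boc, Gas1, Gli2 and Gli3 sit higher, and Smo and Sufu nearly coincide.

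Ptch1 and Hhip, whose products bind the ligand and restrain the pathway, were lower in the knockout library. Ptch1 (ENSMUSG00000021466; chr13:63508328-63573598, minus strand), the receptor and a direct target, measured 19.8 FPKM (19.3 to 20.3) in the Dyrk2-KO library and 28.4 FPKM (27.8 to 29.0) in the WT library. These levels rested on 5655 fragments in the Dyrk2-KO library and 8076 in the WT library. The 2 intervals did not overlap, and the level was 1.43-fold lower (1.38 to 1.48), short of the 1.5-fold rule. Of the 3950 other genes whose mean FPKM lay within 2-fold of that of Ptch1, 50 had a lower log2 ratio.

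Hhip (ENSMUSG00000064325; chr8:79965851-80058006, minus strand), a membrane protein that binds ligand and keeps it from Ptch1, showed the lowest ratio of the 9 genes. It measured 1.05 FPKM (0.908 to 1.21) in the Dyrk2-KO library and 3.65 FPKM (3.38 to 3.94) in the WT library, a 3.48-fold lower level (2.95 to 4.10). The 2 libraries were thus far apart, although the gene was weakly expressed, with 192 fragments in the Dyrk2-KO library and 664 in the WT library. Of the 4089 genes of similar level, 61 had a lower log2 ratio than Hhip. As a fraction of Ptch1, Hhip stood at 0.0530 in the Dyrk2-KO library and 0.129 in the WT library, 2.43-fold lower (2.06 to 2.86), so these targets were not lower by the same factor.

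Promoter sequences from RefSeq (GRCm38.p6) were available for 7 of the 9 genes, all but Gli1 and Boc. The GLI consensus GACCACCCA, searched on both strands from 250 bases before to 50 after the start site, was in none of the 7 and in 0.253% of 32851 windows of all genes. Its inner 6 letters CCACCC were in 4 of the 7, those of Gli2, Gli3, Hhip and Smo, and in 31.5% of all windows. The 250 bases before the start are printed for Hhip and Ptch1, targets with lower levels, and for Gli2, a factor with a higher one. Capitals mark CCACCC or its reverse complement GGGTGG. The RefSeq start used for Ptch1 is an internal one, so its stretch lies within the gene as annotated by GENCODE and not at its 5′ end. The stretch before the Gli3 start, which held its CCACCC copy, likewise lies within the gene and overlaps annotated exons. The stretch before the Gas1 start also overlaps annotated exons.
Hhip, chr8:80058009-80058258, minus strand: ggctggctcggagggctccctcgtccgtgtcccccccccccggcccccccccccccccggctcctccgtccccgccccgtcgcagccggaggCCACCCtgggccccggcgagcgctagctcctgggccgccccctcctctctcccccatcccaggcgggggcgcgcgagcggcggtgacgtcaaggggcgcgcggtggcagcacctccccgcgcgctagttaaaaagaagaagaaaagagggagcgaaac
Ptch1, chr13:63565736-63565985, minus strand: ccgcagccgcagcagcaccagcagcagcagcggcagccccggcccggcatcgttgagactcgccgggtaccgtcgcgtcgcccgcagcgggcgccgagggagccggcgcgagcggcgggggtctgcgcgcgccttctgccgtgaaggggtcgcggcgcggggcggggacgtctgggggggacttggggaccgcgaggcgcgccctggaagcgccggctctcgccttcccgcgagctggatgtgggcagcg
Gli2, chr1:119053620-119053869, minus strand: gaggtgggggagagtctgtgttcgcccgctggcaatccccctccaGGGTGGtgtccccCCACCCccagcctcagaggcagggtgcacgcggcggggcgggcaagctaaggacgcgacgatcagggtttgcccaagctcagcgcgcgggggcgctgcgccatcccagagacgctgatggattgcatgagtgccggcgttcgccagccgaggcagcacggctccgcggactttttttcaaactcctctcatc
The Hhip stretch held 1 copy, which begins 158 bases before the start. The Gli2 stretch held 2 copies, beginning 205 and 192 bases before it, and the Ptch1 stretch held none. The windows were rich in G and C, at 73.7% for Hhip, 76.3% for Ptch1 and 67.3% for Gli2, against a median of 52.7% over all windows.

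Boc and Gas1, co-receptors that help present ligand to Ptch1, were higher in the knockout library, while a further co-receptor, Cdon, lay close to level. Boc (ENSMUSG00000022687; chr16:44485049-44558897, minus strand), an immunoglobulin-type membrane protein, measured 3.99 FPKM (3.58 to 4.42) in the Dyrk2-KO library and 2.19 FPKM (1.89 to 2.51) in the WT library. These levels rested on 357 fragments in the Dyrk2-KO library and 195 in the WT library, the fewest of the 9 genes there. The level was 1.82-fold higher (1.53 to 2.18), and 69 of the 4607 genes of similar level had a higher log2 ratio. The longest run shared by the coding sequences of Boc and Cdon was 31 bases.

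Gas1 (ENSMUSG00000052957; chr13:60174405-60177365, minus strand), a lipid-anchored surface protein encoded by a gene of 1 exon, measured 24.1 FPKM (22.8 to 25.3) in the Dyrk2-KO library and 14.5 FPKM (13.5 to 15.5) in the WT library. The 1.66-fold higher level (1.52 to 1.81) placed Gas1 near the upper edge for its level, with 8 of 4573 genes of similar level above it. A non-coding gene on the opposite strand, Gm48488, covers 19.9% of its exon bases and was at 0.01 FPKM in the Dyrk2-KO library and 0.05 FPKM in the WT library. Boc stood at 0.166 of the Gas1 level in the Dyrk2-KO library and at 0.151 in the WT library, and the ratio of these values, 1.10, had an interval of 0.904 to 1.33. The 2 co-receptors were therefore higher by factors that counting error does not separate. Cdon, the third co-receptor and no member of the 9, measured 10.1 FPKM in the Dyrk2-KO library and 9.74 FPKM in the WT library, a ratio of 1.04 (0.965 to 1.11). The co-receptors thus did not all differ alike. The summed level of Cdon, Boc and Gas1 was 38.1 FPKM in the Dyrk2-KO library and 26.4 FPKM in the WT library, and Gas1 made up 63.1% of it in the Dyrk2-KO library and 54.8% in the WT library.

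**Figure D2:**
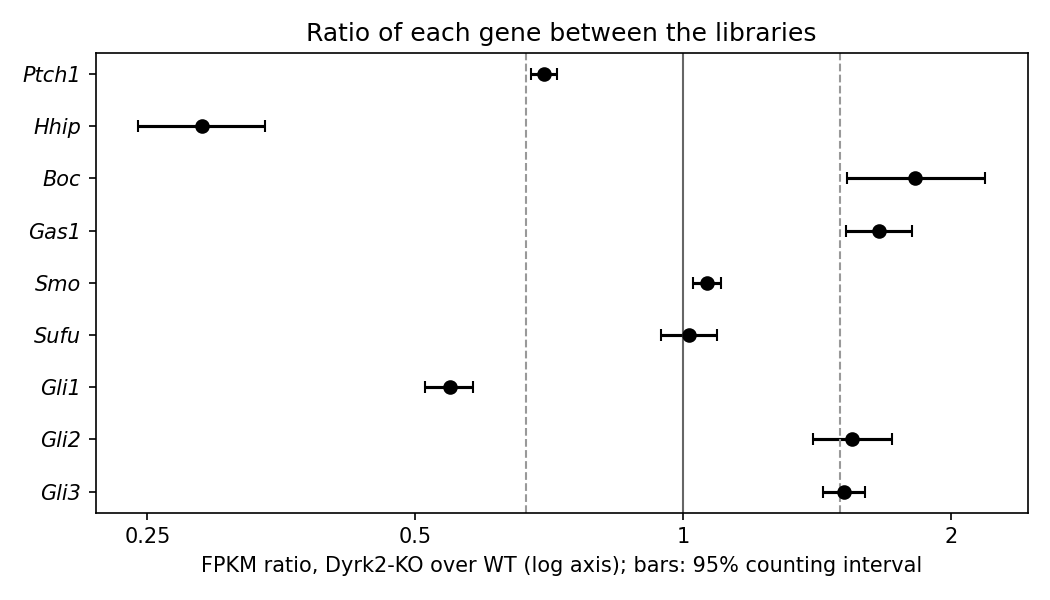
Ratio of FPKM in the Dyrk2-KO library over the WT library for each gene on a log axis, with 95% counting intervals; the solid line marks equality and the dashed lines 1.5-fold either way. Hhip at 0.288 and Gli1 at 0.546 lie left of the lower dashed line, and Boc at 1.82 and Gas1 at 1.66 lie right of the upper one with their whole intervals. Gli2 at 1.55 and Gli3 at 1.51 also lie right of the upper line, but their intervals cross it.

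The transducers differed least. Smo (ENSMUSG00000001761; chr6:29735503-29761365, plus strand), the membrane protein that carries the signal into the cell, measured 53.7 FPKM (52.4 to 55.1) in the Dyrk2-KO library and 50.5 FPKM (49.2 to 51.8) in the WT library. It was the most expressed of the 9 genes in both. Its ratio of 1.06 (1.03 to 1.10) excluded equality by counting error alone, yet 592 of 1866 genes of similar level had a higher log2 ratio. Sufu (ENSMUSG00000025231; chr19:46396896-46488804, plus strand), which holds Gli factors in the cytoplasm, measured 9.82 FPKM (9.33 to 10.3) in the Dyrk2-KO library and 9.68 FPKM (9.19 to 10.2) in the WT library, with overlapping intervals and a ratio of 1.01 (0.944 to 1.09). The ratio of Sufu to Smo was 0.183 in the Dyrk2-KO library and 0.192 in the WT library. The ratio of Ptch1 to Smo, receptor over the protein it restrains, was 0.369 in the Dyrk2-KO library and 0.563 in the WT library, 1.52-fold lower (1.45 to 1.60). These ratios within a library do not move with how the libraries were scaled.

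The Gli genes encode zinc finger proteins that bind the same DNA motif, and their coding sequences are most alike in the fingers. A matching stretch of 60 coding bases is shown for the 3 genes, with the 42 letters that all share in capitals.
Gli1, coding bases 892 to 951: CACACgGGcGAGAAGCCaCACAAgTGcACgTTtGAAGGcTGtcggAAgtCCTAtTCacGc
Gli2, coding bases 1429 to 1488: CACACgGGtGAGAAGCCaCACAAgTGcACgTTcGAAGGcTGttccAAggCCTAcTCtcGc
Gli3, coding bases 1618 to 1677: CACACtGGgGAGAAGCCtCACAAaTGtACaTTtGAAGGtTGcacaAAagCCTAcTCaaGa
Even here Gli1 and Gli2 shared 52 of 60 letters and Gli2 and Gli3 45 of 60. The longest run shared by any pair of their coding sequences was 25 bases, and no 31 bases in a row were common to annotated transcripts of any 2 of the genes. The sequences are those of GENCODE M21.

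Gli1 parted from its relatives. Gli1 (ENSMUSG00000025407; chr10:127329882-127341974, minus strand), the target by which pathway activity is usually read, measured 15.5 FPKM (14.8 to 16.3) in the Dyrk2-KO library and 28.4 FPKM (27.4 to 29.5) in the WT library, with 1560 fragments in the Dyrk2-KO library and 2846 in the WT library. The level was 1.83-fold lower (1.72 to 1.95), and 14 of 4214 genes of similar level had a lower log2 ratio. Antisense genes overlap 5.31% (Gm47200) and 1.24% (Arhgap9) of its exon bases, at 0.08 and 0.30 FPKM in the Dyrk2-KO library and 0 and 0.32 FPKM in the WT library.

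Gli2 and Gli3 were higher in the knockout library by nearly the same factor. Gli2 (ENSMUSG00000048402; chr1:118834132-119053619, minus strand), the main activator, measured 6.97 FPKM (6.54 to 7.42) in the Dyrk2-KO library and 4.50 FPKM (4.16 to 4.87) in the WT library, a 1.55-fold higher level (1.40 to 1.72). Gli3 (ENSMUSG00000021318; chr13:15463235-15730026, plus strand), the main repressor, measured 17.2 FPKM (16.6 to 17.8) in the Dyrk2-KO library and 11.4 FPKM (10.9 to 11.9) in the WT library, a 1.51-fold higher level (1.43 to 1.60). For neither gene did the intervals of the libraries overlap. Of genes of similar level, 66 of 5611 had a higher log2 ratio than Gli2, and 28 of 5244 a higher one than Gli3. Gm6556, on the opposite strand, covers 1.96% of the exon bases of Gli3 and was at 2.80 FPKM in the Dyrk2-KO library and 2.10 FPKM in the WT library.

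The order of the Gli transcripts differed between the libraries. Gli1 was 0.902 of Gli3 (0.849 to 0.958) in the Dyrk2-KO library and 2.50 times Gli3 (2.36 to 2.64) in the WT library. The ratio of Gli1 to Gli3 was thus 2.77-fold lower (2.55 to 3.01). The ratio of Gli1 to Gli2 was 2.23 in the Dyrk2-KO library and 6.32 in the WT library, 2.83-fold lower (2.52 to 3.19). Against this, the ratio of Gli3 to Gli2 was 2.47 in the Dyrk2-KO library and 2.53 in the WT library, and the quotient of 0.978 had an interval of 0.872 to 1.10. Summed over the 3 genes, Gli transcripts stood at 39.7 FPKM in the Dyrk2-KO library and 44.3 FPKM in the WT library, so their makeup differed more than their total. Gli1 made up 39.1% of the sum in the Dyrk2-KO library and 64.2% in the WT library. Gli3 made up 43.4% in the Dyrk2-KO library and 25.7% in the WT library, and Gli2 made up 17.5% in the Dyrk2-KO library and 10.2% in the WT library. These are transcripts, and neither full-length nor cleaved Gli proteins were measured.

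**Figure D3:**
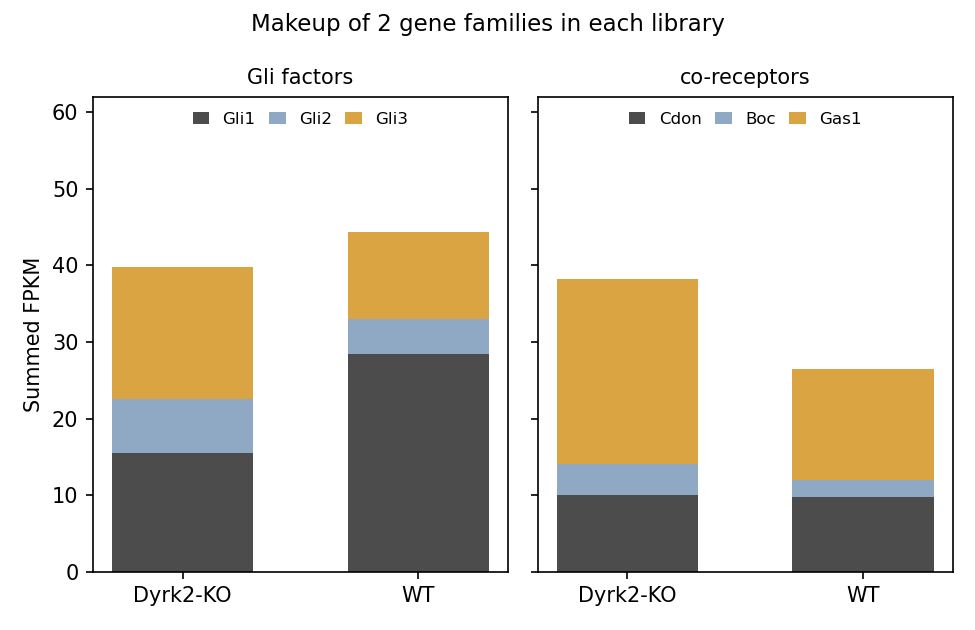
Stacked bars of summed FPKM in the Dyrk2-KO library and the WT library for the Gli factors and the co-receptors, with bars starting at 0 and no error bars. The Gli sum is 39.7 FPKM in the Dyrk2-KO library and 44.3 FPKM in the WT library, with Gli1 a smaller and Gli3 a larger part in the Dyrk2-KO library; the co-receptor sum is larger there, at 38.1 FPKM against 26.4 FPKM in the WT library.

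The targets Gli1 and Ptch1, at the same level in the WT library, were apart in the Dyrk2-KO library. The ratio of Gli1 to Ptch1 was 0.784 (0.741 to 0.829) in the Dyrk2-KO library and 1.001 (0.959 to 1.04) in the WT library, 1.28-fold lower (1.19 to 1.37). Ordered by level, the genes ran Smo, Gas1, Ptch1, Gli3, Gli1, Sufu, Gli2, Boc and Hhip in the Dyrk2-KO library. In the WT library they ran Smo, Gli1, Ptch1, Gas1, Gli3, Sufu, Gli2, Hhip and Boc. Neighbours in each order had separate Poisson intervals, except Gli1 and Ptch1 in the WT library. The highest level was 51.1-fold above the lowest in the Dyrk2-KO library and 23.0-fold in the WT library.

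**Figure D4:**
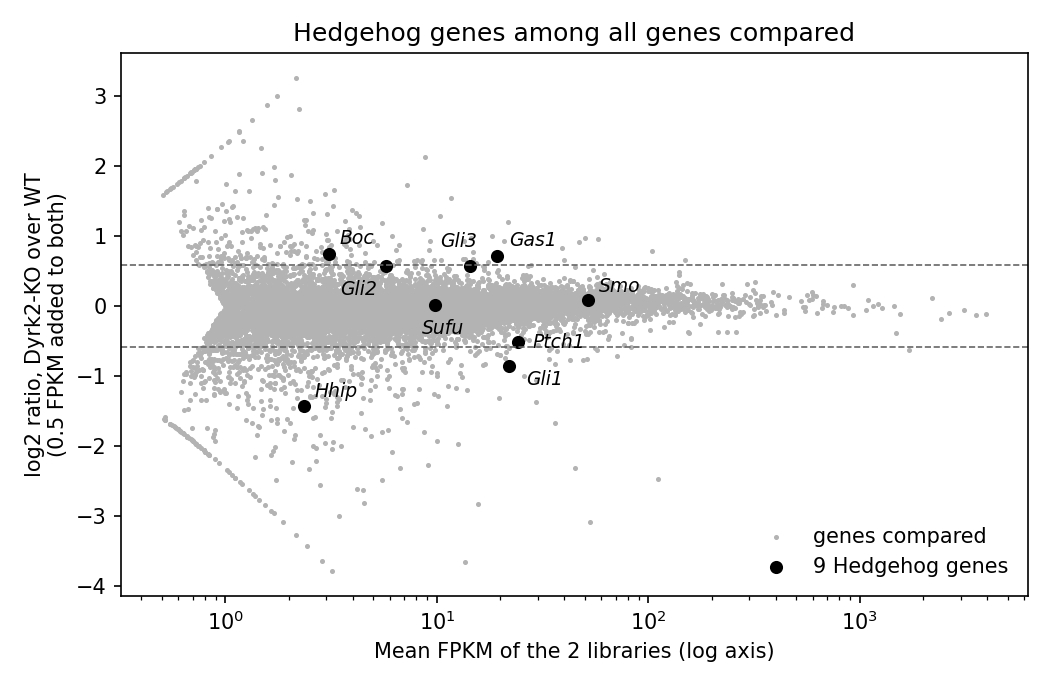
Log2 ratio of the Dyrk2-KO library over the WT library with 0.5 FPKM added (y axis) against mean FPKM on a log axis (x axis) for all 14000 genes compared in grey and the 9 Hedgehog genes in black; dashed lines mark 1.5-fold. Gas1 at 0.71, Boc at 0.74, Gli1 at -0.85 and Hhip at -1.42 lie outside the lines, Gli2 and Gli3 at 0.58 just under the upper one, and Smo and Sufu inside the bulk.

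Other genes of the pathway were set beside the 9. Among 8 genes for the ligands and their release, 5 passed the filter and none reached 1.5-fold. Of all genes compared, 93.4% lay within 1.5-fold, so this count is near the background. Shh, the ligand of oral ectoderm and ventral forebrain, measured 2.67 FPKM in the Dyrk2-KO library and 2.58 FPKM in the WT library, a ratio of 1.03 (0.822 to 1.31). Scube1 and Scube3, members of a secreted family of which Scube2 helps release ligand, measured 33.7 and 24.5 FPKM in the Dyrk2-KO library and 35.3 and 24.2 FPKM in the WT library. Disp1, which releases ligand from the sending cell, measured 5.78 FPKM in the Dyrk2-KO library and 5.22 FPKM in the WT library. Ihh and Dhh, the other ligands, were below 1 FPKM in both libraries.

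All 8 further surface genes passed the filter and none was past 1.5-fold, again near the background, with 93.4% of all genes within it. Their median log2 ratio was 0.04. The most expressed were Gpc3, a glypican that competes for ligand, at 206 FPKM in the Dyrk2-KO library and 267 FPKM in the WT library, and Mgrn1, a ubiquitin ligase that lowers Smo at the cell surface, at 24.35 FPKM in the Dyrk2-KO library and 26.8 FPKM in the WT library. Gpc4, another glypican, measured 17.0 FPKM in the Dyrk2-KO library and 15.5 FPKM in the WT library.

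All 20 cytoplasmic regulators passed the filter and none was 1.5-fold apart; their log2 ratios spanned -0.22 to 0.13, with a median of -0.01. Of all genes compared, 93.4% lay within 1.5-fold, so this count is near the background. These include the kinases that phosphorylate Gli proteins for processing, the ligases that mark them and the cilium-tip kinesin Kif7. The most expressed were Gnas, a stimulatory G protein subunit, at 194 FPKM in the Dyrk2-KO library and 201 FPKM in the WT library, and Prkar1a, a regulatory subunit of protein kinase A, at 114 FPKM in the Dyrk2-KO library and 121 FPKM in the WT library. Csnk1d, a casein kinase, measured 71.6 FPKM in the Dyrk2-KO library and 72.0 FPKM in the WT library.

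Of 17 other genes listed as targets in some tissues, 15 passed the filter. By the 1.5-fold rule 6 were lower and 2 higher, against the 4.56% and 2.06% of all genes, and the median log2 ratio was 0.06. The lower ones were the forkhead genes Foxl1, Foxf2, Foxd1 and Foxc2, the mesenchymal regulator Snai1 and the homeobox gene Nkx3-2. Foxl1 and Foxf2 measured 0.75 and 2.78 FPKM in the Dyrk2-KO library and 8.28 and 15.3 FPKM in the WT library. Foxd1 measured 3.62 FPKM in the Dyrk2-KO library and 13.8 FPKM in the WT library, and Foxc2 3.81 FPKM in the Dyrk2-KO library and 9.83 FPKM in the WT library. Snai1 was 1.91-fold lower (1.51 to 2.42), and Nkx3-2 rested on 12 fragments in the Dyrk2-KO library and 49 in the WT library. Mesenchyme markers were also lower in sum, and whether these differences are linked was not tested. The higher ones were Osr1 and Osr2, zinc finger genes of mesenchyme, at 2.33 and 2.77 FPKM in the Dyrk2-KO library and 1.18 and 0.18 FPKM in the WT library. Osr2 rested on 13 fragments in the WT library. Foxl1, Nkx3-2 and Osr2 passed the filter only through the library where they were higher, so their calls are not independent of the filter. The most expressed listed targets, the cyclin genes Ccnd1 and Ccnd2, were 1.40-fold (1.37 to 1.44) and 1.28-fold higher (1.24 to 1.31), and Rab34, a small GTPase of the cilium, measured 32.8 FPKM in the Dyrk2-KO library and 38.9 FPKM in the WT library. Genes listed as targets thus lay on both sides. Among the 9 genes, the targets Gli1, Ptch1 and Hhip were lower, Ptch1 by less than 1.5-fold. Pathway activity itself was not measured.

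**Figure D5:**
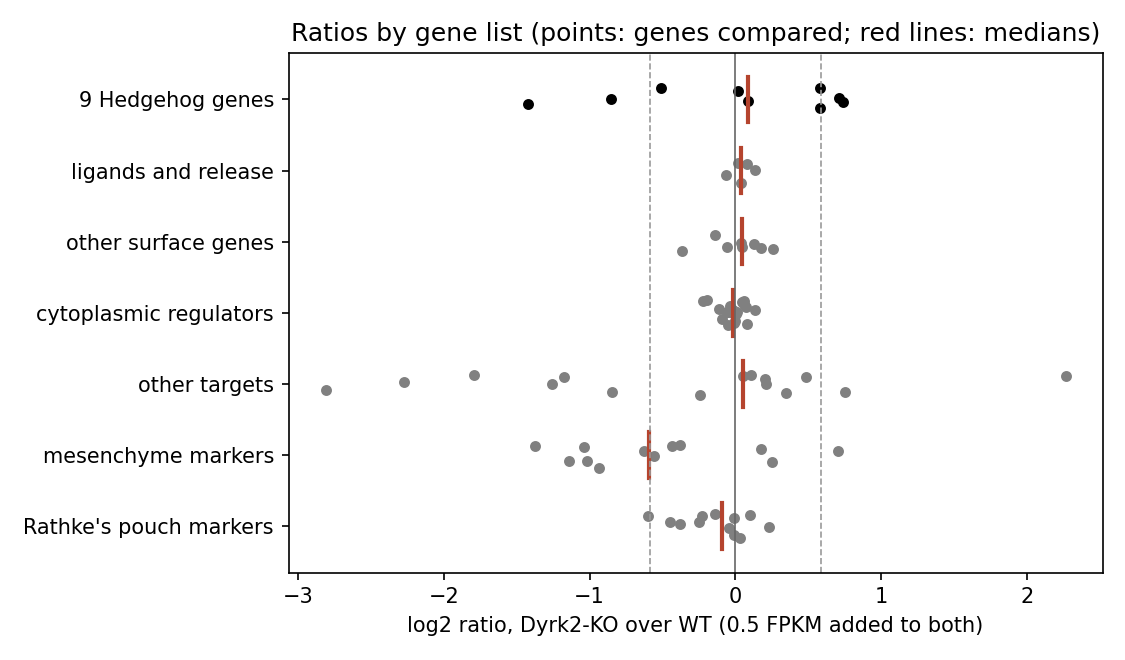
Log2 ratios of the Dyrk2-KO library over the WT library with 0.5 FPKM added (x axis) for genes that passed the filter in each list (rows), with red lines at the medians and dashed lines at 1.5-fold. The 20 cytoplasmic regulators cluster between -0.22 and 0.13, while the 9 Hedgehog genes and the other targets spread to both sides and the mesenchyme markers have a median of -0.59.

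Of the tissue markers, those of mesenchyme and of pericytes and smooth muscle stood furthest from level. All 12 mesenchyme markers passed the filter and none was at 0. Of these, 6 were at least 1.5-fold lower and 1 was higher, against 4.56% and 2.06% of all genes compared. The same shares stand beside every count below, and counts of 0 or 1 in such short lists do not stand apart from them. The mesenchyme sums given above cover all 12. The mesenchyme marker that was higher, Prrx1, passed the filter only through the Dyrk2-KO library, at 1.67 FPKM there and 0.83 FPKM in the WT library. Of 7 markers of pericytes and smooth muscle, 5 passed the filter, 3 of them at least 1.5-fold lower. The sums were 19.9 FPKM in the Dyrk2-KO library and 64.1 FPKM in the WT library. Pdgfrb is in this list and in the mesenchyme list and counts as lower in both, so these lists are not separate. Pouch and epithelial markers had a median log2 ratio of -0.09 with 1 of 12 at least 1.5-fold lower, and hypothalamic and infundibular markers a median of -0.12 with 0 of 8 past the rule. Endothelial markers had a median of 0.13 and none of 8 past the rule. The 7 neuronal markers, with 1 at least 1.5-fold lower, had a median of 0.30 but summed to 76.9 FPKM in the Dyrk2-KO library and 90.6 FPKM in the WT library. All 5 erythroid markers that passed the filter, of 6 listed, had log2 ratios between -0.39 and -0.31, none past the rule, and the listed genes summed to 1743 FPKM in the Dyrk2-KO library and 2266 FPKM in the WT library. Of 6 cartilage markers 4 passed the filter, and 1 of them was at least 1.5-fold lower. This was Matn4, a matrix protein gene, at 0.18 FPKM in the Dyrk2-KO library and 3.30 FPKM in the WT library. It passed the filter only through the WT library. The other 3, Col2a1, Sox9 and Col9a1, lay within 1.5-fold, with ratios of knockout over wild type of 0.858, 0.922 and 1.19. Matn1 did not pass the filter, at 0 FPKM in the Dyrk2-KO library and 0.1 FPKM, or 4 fragments, in the WT library. The cartilage sums were 135 FPKM in the Dyrk2-KO library and 159 FPKM in the WT library. Glial markers, 3 of 6 past the filter, had a median of -0.12, and macrophage markers, 4 of 6 past it, a median of -0.35, with none past the rule in either list. The part of these marker differences in the levels of the 9 genes and of the listed targets was not tested.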

How the data were processed

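RNA of E12.5 mouse pituitaries was sequenced as 1 library per genotype, with polyA selection and a stranded kit, per the labels' protocols. The submitters' processing notes name cutadapt 1.9.1, HISAT2 2.0.1 and GRCm38. The sources used here do not give the counting tool, its use of strand or its filters. The authors deposited FPKM per Ensembl gene to 2 decimals together with exon length, per the file headers. The sum of FPKM times length is equal in both tables, so values are relative to all fragments counted in genes.

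FPKM were used as deposited, as no counts were at hand. Whole fragments were recovered from the steps of FPKM times length: 1372 of 1372 values in the Dyrk2-KO table and 1516 of 1516 in the WT table were whole within 0.1 fragment. They served exact Poisson intervals of levels and exact Clopper-Pearson intervals of ratios. Intervals of a ratio between 2 genes used the normal approximation on the log scale. No count model or test was run. Symbols and coordinates came from GENCODE M21, which matched 55141 identifiers and the exon length of all 9 genes. Genes that reached 1 FPKM in either library were kept, and 0.5 FPKM was added for log2 ratios and for fold counts. Steps were tested on simulated data.

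The 9 genes and all lists were chosen with earlier results of these data known. All 9 genes are named, and from each pathway list those past 1.5-fold and the 3 most expressed. Shh, Ihh, Dhh, Scube2, Cdon and Kif7 were added for their roles. Items withheld from the pathway lists are not reported here and enter no count of those lists. Alternatives were other added values, filters, folds and scalings. Analyses used Python 3.11.15 and scipy 1.17.1.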

Additional observations from a re-analysis of the deposited data

How the results depend on the processing

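No paired analysis was possible because each genotype had only 1 library. Counts of genes past 1.5-fold rested on the value added and on the filter. With 2 FPKM added, 1 of the 9 genes was higher (Gas1), 301 of all genes were lower and 132 higher, and 1 listed target was higher. With 0.1 FPKM added, as plain ratios, and under both scalings, 4 were higher, Gli2 and Gli3 joining Boc and Gas1. Of all 14000 genes, 384 were higher with 0.1 FPKM added and 405 as plain ratios. Scaling by a trimmed mean gave 315 higher genes and scaling to equal medians 319. A filter of 5 FPKM left 1 of the 9 lower (Gli1) and 1 higher (Gas1), since Hhip and Boc did not pass. Of the 9037 genes that passed it, 178 were lower and 60 higher. Among listed targets 0 were higher, since Osr1 and Osr2 did not pass. Without a filter, 1192 of all 55401 genes were lower and 622 higher. At 2-fold, 1 of the 9 was lower (Hhip) and 0 were higher, but all genes were not counted at that fold, so these counts have no background. Without these changes 638 genes were lower and 289 higher.

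The log2 ratio of Hhip, -1.42, was -1.71 with 0.1 FPKM added and -0.89 with 2 FPKM, and that of Hhip to Ptch1, -1.28, was -0.91 with 0.5 FPKM added to both genes. Of 27 recomputed ratios of the 9 genes, 25 moved by less than their counting error and none changed side. Scalings multiplied the knockout library by 1.023 and 1.024. The scalings of family totals and the addition to Gli shares were chosen after seeing the data and moved none of them beyond counting error or 2 percentage points.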
